A study of Danio rerio with 6 samples.

Results

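The Mef2 transcription factor genes were followed in kidney marrow cells of adult zebrafish. Their rows were found in the deposited gene table by name, which gave 6 of its 32057 rows, and all 6 were among the 20123 rows with enough counts to be tested. Tg fish carried Tg(drl:hoxa9;hsp70:meis1), in which a myc-tagged hoxa9 stands behind the draculin (drl) element of blood cells and meis1b, linked to GFP, behind the heat shock promoter hsp70. WT fish were of the AB strain and carried neither transgene. There were 3 Tg and 3 WT libraries of poly(A) RNA, each from the marrow cells of 3 kidneys mixed together, so that a library shows a mean over fish. The fish were 5 months old by the labels, while the text of the study's results gives a younger age. The sources used here do not give the heat shock schedule of the sequenced fish. Levels are given as CPM, counts scaled to library size with TMM factors, written as mean ± SD with n = 3 libraries for each genotype.

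Mef2 proteins are MADS-box factors that bind A/T-rich DNA and are best known for switching on muscle genes. In mammals they also act in blood: MEF2C is needed for B cells and for megakaryocytes and platelets, takes part in the choice between monocyte and granulocyte, and is highly expressed in a subset of acute myeloid leukaemias, while MEF2D is a partner in gene fusions of B cell leukaemia and MEF2B is mutated in germinal centre lymphoma. Class IIa histone deacetylases hold Mef2 proteins in a repressing complex, and kinases that phosphorylate these deacetylases, or Mef2 itself, release that hold.

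The name table gives both mef2c rows the symbol MEF2C, so neither could be assigned to mef2ca or mef2cb. They are called here the first MEF2C row (ENSDARG00000009418) and the second MEF2C row (ENSDARG00000029764). The row named MEF2A (ENSDARG00000031756) stands for mef2aa, and mef2ab (ENSDARG00000057527), MEF2B (ENSDARG00000093170) and MEF2D (ENSDARG00000040237) have 1 row each. Transcript lengths of the build used (GRCz11) were not used here, and levels are therefore compared between libraries and not between genes. The family was chosen by the contrast of Tg against WT in these same libraries, in which the first MEF2C row had an adjusted p of 0.0474 by edgeR's quasi-likelihood test. What follows on the 6 rows in that contrast is a description.

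Total counts were 50767535 to 64055374 in Tg and 53620374 to 64888212 in WT. The row of hoxa9a, the transgenic homeobox gene, read 64.5, 78.1 and 101 CPM in the Tg libraries and 0, 0.143 and 0.960 CPM in the WT libraries. The MEIS1 row (ENSDARG00000012078), which can hold reads of the meis1b transgene, read 77.2, 56.1 and 52.5 CPM in Tg and 21.4, 24.5 and 26.7 CPM in WT. Both rows separated the genotypes as labelled. Across all rows tested, 45 were higher and 75 lower in Tg at an adjusted p under 0.05, and the median log2 fold change was 0.01.

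The first MEF2C row was the member that differed most evenly between the genotypes. It read 56.6, 49.1 and 53.6 CPM in the Tg libraries and 84.6, 100.4 and 97.8 CPM in the WT libraries. Every Tg library lay below every WT library, and the spread within a genotype was small beside the distance between them. The means were 53.1 ± 3.78 CPM in Tg and 94.2 ± 8.48 CPM in WT, a level 43.7% lower in Tg, with a log2 fold change of -0.83 (standard error 0.12). The counts behind these levels were 2428 to 3211 reads in Tg and 4661 to 6417 in WT. In RNA from a mixed marrow, fewer cells that express the gene and less of its RNA per cell cannot be told apart. It was the 1 member of 6 past an adjusted p of 0.05, where 0.596% of all rows tested stood (0.373% on the lower side). The family was chosen by this contrast, so that share does not measure how unusual the pass is. Of the 6 members, 0 had both such an adjusted p and a change of at least 2-fold, where 0.562% of all rows did. Left without any 1 of the 6 libraries, the first MEF2C row had a log2 fold change of -0.90 to -0.78 and an adjusted p of 0.0573 to 0.198 in the same test.

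The second MEF2C row showed no such distance. It read 14.9, 18.4 and 14.5 CPM in Tg and 15.3, 14.3 and 17.4 CPM in WT, so that the genotypes overlapped. The means were 15.9 ± 2.14 CPM in Tg and 15.7 ± 1.54 CPM in WT (log2 fold change 0.03, standard error 0.18), and the sign turned when libraries were scaled by total count alone (-0.05). Within a library, the first MEF2C row held 3.79, 2.67 and 3.69 times the reads of the second in Tg and 5.54, 7.00 and 5.63 times in WT. This ratio does not depend on how the libraries are scaled, and it was lower in every Tg library than in any WT library. The family was chosen with the lower level of the first MEF2C row in these libraries known, so the ratio is no separate support for it.

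MEF2D, the member with fusions in B cell leukaemia, read 67.2, 67.4 and 79.9 CPM in Tg and 64.2, 55.8 and 67.4 CPM in WT. The highest WT library, replicate 3 at 67.45 CPM, stood just above Tg replicates 1 and 2 at 67.21 and 67.36 CPM, so the genotypes overlapped. The means were 71.5 ± 7.27 CPM in Tg and 62.5 ± 5.99 CPM in WT (log2 fold change 0.19, standard error 0.13). MEF2A, a widely expressed member, read 14.6, 18.6 and 25.1 CPM in Tg and 17.6, 17.9 and 17.98 CPM in WT. Its WT libraries were nearly equal, with a coefficient of variation of 1.32%, while the Tg libraries lay on both sides of them with one of 27.4%. The log2 fold change of MEF2A was 0.13 (standard error 0.22) and became -0.10 without Tg replicate 3.

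MEF2B, which in human lymphocytes is a gene of the germinal centre, read 6.82, 7.09 and 8.60 CPM in Tg and 12.01, 7.91 and 8.84 CPM in WT. Its means were 7.50 ± 0.956 CPM in Tg and 9.59 ± 2.15 CPM in WT (log2 fold change -0.35, standard error 0.25), and WT replicate 1 alone held the highest value. BORCS8, a neighbouring lysosome-positioning gene that the RefSeq table also lists under the name mef2b, read 6.05, 8.35 and 9.85 CPM in Tg and 6.97, 7.42 and 9.98 CPM in WT. Its log2 fold change was -0.01 (standard error 0.27), and its values did not follow those of MEF2B.

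The row of mef2ab was close to the floor of these libraries. It held 53, 37 and 54 reads in Tg and 6, 32 and 0 reads in WT, or 0.993, 0.748 and 0.901 CPM in Tg and 0.109, 0.574 and 0 CPM in WT. Each Tg library was above each WT library, with means of 0.881 ± 0.124 CPM in Tg and 0.228 ± 0.305 CPM in WT, and the WT libraries differed among themselves by more than their mean. A count of 0 in WT replicate 3 allows up to 3 reads, or 0.0457 CPM, by counting error alone. The log2 fold change of 1.95 had a standard error of 1.43 and was 3.99 without WT replicate 2 and 1.34 without WT replicate 3. By RefSeq, mef2ab is overlapped by 2 other coding gene models, and the sources used here do not say how reads of overlapping genes were shared out. With the first MEF2C row, mef2ab made 2 of 6 members whose libraries did not overlap between the genotypes, where 28.1% of all rows tested did not.

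**Figure D1:**
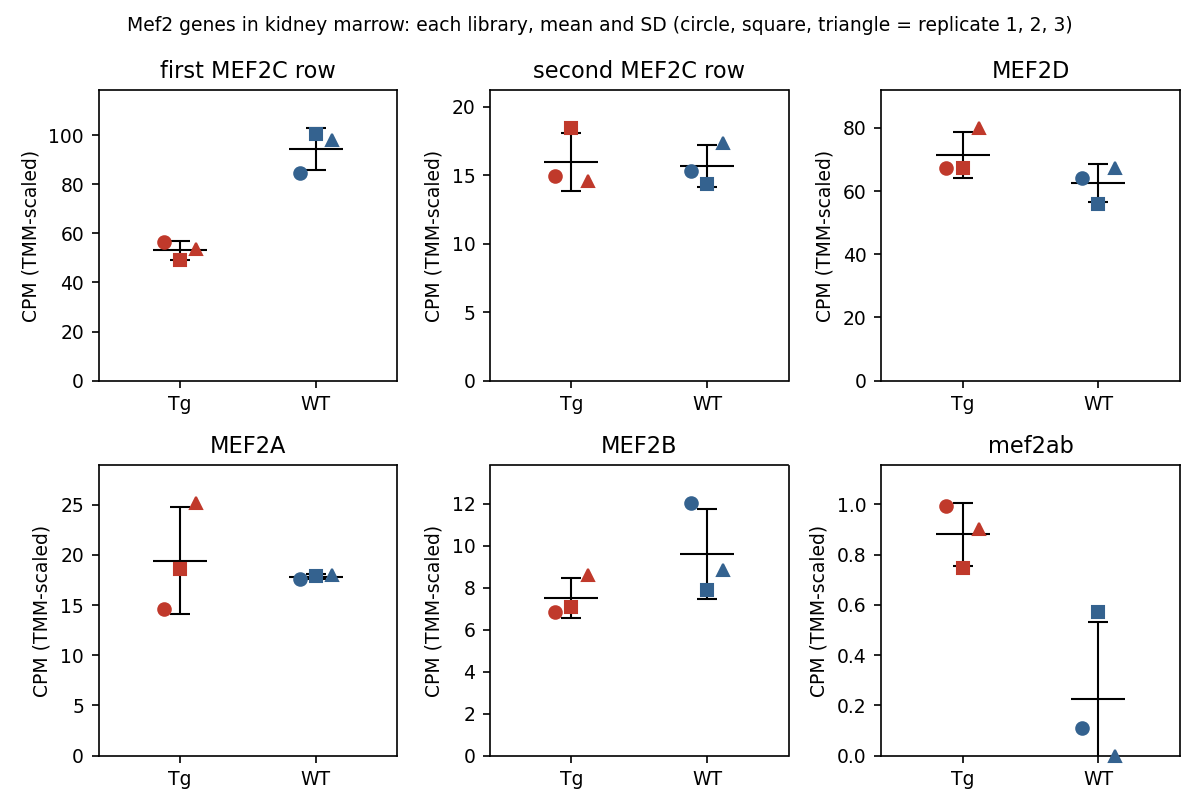
Level in CPM (vertical axes, each starting at 0) of the 6 Mef2 rows in the 3 Tg libraries (left, red) and the 3 WT libraries (right, blue), with the mean and SD in black. The first MEF2C row lies at 49.1 to 56.6 CPM in Tg, below 84.6 to 100.4 CPM in WT, while the second MEF2C row, MEF2D, MEF2A and MEF2B overlap.

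All 6 rows together held 161, 161 and 183 CPM in Tg and 194, 197 and 209 CPM in WT (168 ± 12.4 CPM in Tg and 200.02 ± 8.30 CPM in WT). The first MEF2C row supplied 35.1, 30.4 and 29.3% of the family's reads in Tg and 43.7, 50.97 and 46.7% in WT. MEF2D supplied 41.7, 41.8 and 43.7% in Tg and 33.1, 28.3 and 32.2% in WT. The row with the most reads of the family was thus MEF2D in every Tg library and the first MEF2C row in every WT library. These are shares of reads and not of transcripts, and a smaller share of one row raises the others. The MEF2A row took 9.05 to 13.8% in Tg and 8.59 to 9.09% in WT, and the second MEF2C row 7.96 to 11.4% in Tg and 7.28 to 8.29% in WT.

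**Figure D2:**
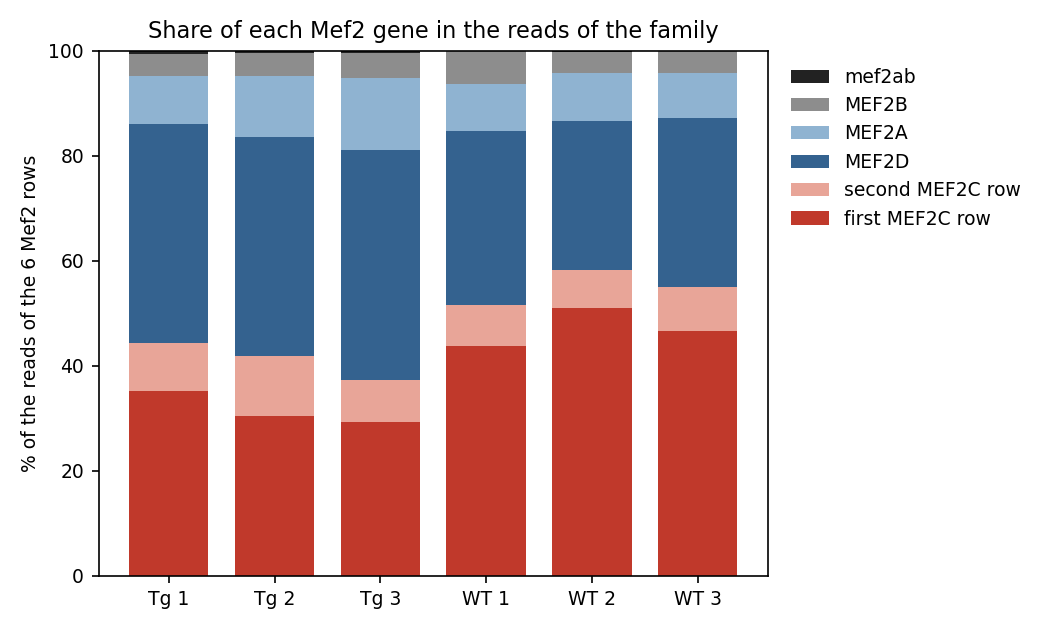
Percent of the reads of the 6 Mef2 rows (vertical axis) that each row supplied, stacked for each Tg and WT library. The first MEF2C row is at 29.3 to 35.1% in Tg and 43.7 to 50.97% in WT, and MEF2D at 41.7 to 43.7% in Tg and 28.3 to 33.1% in WT.

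The members did not vary as a group over the 6 libraries. The log2 levels of MEF2A and MEF2D had a Pearson r of 0.602, the first MEF2C row had r of -0.653 with MEF2D, -0.696 with mef2ab and 0.492 with MEF2B, and the 2 MEF2C rows had r of -0.177 with each other. These coefficients describe 6 libraries that fall into 2 genotypes, so a difference between genotypes enters each of them.

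The genes that regulate Mef2 proteins, work with them or are known as their targets were taken from lists by role, 101 rows in all, of which 87 were tested. In edgeR's quasi-likelihood test 0 of the 87 were higher and 0 lower at an adjusted p under 0.05, where 0.224% and 0.373% of all rows tested were. At an unadjusted p under 0.05 there were 6 higher and 7 lower of the 87, a smaller share than over all rows tested, of which 3991 of 20123 (19.8%) had such a p, 9.07% on the higher and 10.8% on the lower side. The counts at an unadjusted p that follow stand against these shares. From the same counts limma-voom passed 0 rows (8 higher and 5 lower unadjusted) and DESeq2 passed 4, all lower: hdac7b, the myoglobin gene mb, PPARGC1A and a TTN row (5 higher and 7 lower unadjusted). The median log2 fold change of the 87 rows was 0.05, against 0.01 over all rows tested.

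Among the class IIa histone deacetylases, the repressors that bind Mef2 proteins, and Cabin1, a calcineurin-binding Mef2 repressor, all 6 rows tested had log2 fold changes below 0, as had 49.07% of all rows tested. Their median was -0.34 (-0.36 with DESeq2 size factors and -0.41 with total counts alone, all 6 below 0 in each), and 0 passed the test, with 2 lower at an unadjusted p under 0.05, where 10.8% of all rows were. The paralogue hdac7b had 15.2, 12.5 and 18.3 CPM in Tg and 25.1, 49.5 and 55.6 CPM in WT. Its Tg libraries lay below its WT libraries, at 15.3 ± 2.90 CPM in Tg and 43.4 ± 16.1 CPM in WT, a log2 difference of -1.50 with a standard error of 0.31 (adjusted p = 0.0843 by edgeR). Without WT replicate 1, the lowest WT library, the log2 fold change was -1.78 and the adjusted p 0.0407 by edgeR, and over all alternatives its adjusted p was 9e-05 to 0.232. The paralogue hdac9b read 46.5, 85.2 and 81.9 CPM in Tg and 148, 136 and 78.3 CPM in WT. Its genotypes overlapped through WT replicate 3 (log2 fold change -0.76 ± 0.31 standard error, adjusted p = 0.235 by edgeR). The others were CABIN1 at -0.39, HDAC5 at -0.30, HDAC7 at -0.20 and HDAC4 at -0.11 on the log2 scale.

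The kinases that phosphorylate class IIa deacetylases, together with the LKB1 (STK11), SIK and MARK kinases that have been tied to MEF2C in human leukaemia cells, had 21 rows tested. Their median log2 fold change was 0.01 with 10 rows below 0, and 1 row, CAMK1D at -0.68 (adjusted p = 0.225 by edgeR), had an unadjusted p under 0.05. The calcium/calmodulin kinase gene camk2g2 read 99.3 ± 5.38 CPM in Tg and 99.9 ± 9.30 CPM in WT (log2 fold change -0.01, standard error 0.12), and its paralogue camk2g1 103 ± 11.9 CPM in Tg and 95.8 ± 11.8 CPM in WT. The log2 fold change was 0.30 for SIK3, a salt-inducible kinase (adjusted p = 0.326 by edgeR), and 0.25 for STK11 (adjusted p = 0.434 by edgeR).

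Of the kinases and the phosphatase that act on Mef2 proteins themselves, 16 rows were tested, with a median log2 fold change of 0.13 and 0 at an unadjusted p under 0.05. MAPK7 (ERK5), a kinase that activates Mef2 proteins, stood at 0.17. The p38 kinase gene mapk11 read 158 ± 48.9 CPM in Tg and 133 ± 4.12 CPM in WT, and PPP3R1 (ENSDARG00000069360), the regulatory subunit of calcineurin, 102 ± 7.98 CPM in Tg and 88.0 ± 3.05 CPM in WT. Their log2 fold changes were 0.25 (standard error 0.22) and 0.21 (standard error 0.11).

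The coactivators and partner factors had 13 rows tested and a median log2 fold change of 0.20. There were 10 rows above 0, 7 when libraries were scaled by total count alone, and 5 were higher at an unadjusted p under 0.05, where 9.07% of all rows were. These were the calcineurin-controlled factors nfatc3b (0.36) and NFATC2 (0.35), MAML1 (0.34), the arginine methyltransferase CARM1 (0.55) and the EP300 row ENSDARG00000100666 (0.25). The smallest adjusted p among them was 0.1826 by edgeR, for nfatc3b. The acetyltransferase CREBBP (ENSDARG00000112452) read 142 ± 5.39 CPM in Tg and 124 ± 4.93 CPM in WT, and the EP300 row ENSDARG00000061108 read 126 ± 20.5 CPM in Tg and 124 ± 10.9 CPM in WT. Among the 6 tested rows of SRF, the other MADS-box factor of this kind, and its cofactors, the median was 0.03. The cofactor mrtfab had 280 ± 66.5 CPM in Tg and 254 ± 53.3 CPM in WT, and MRTFA 56.7 ± 4.01 CPM in Tg and 60.0 ± 6.93 CPM in WT.

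**Figure D3:**
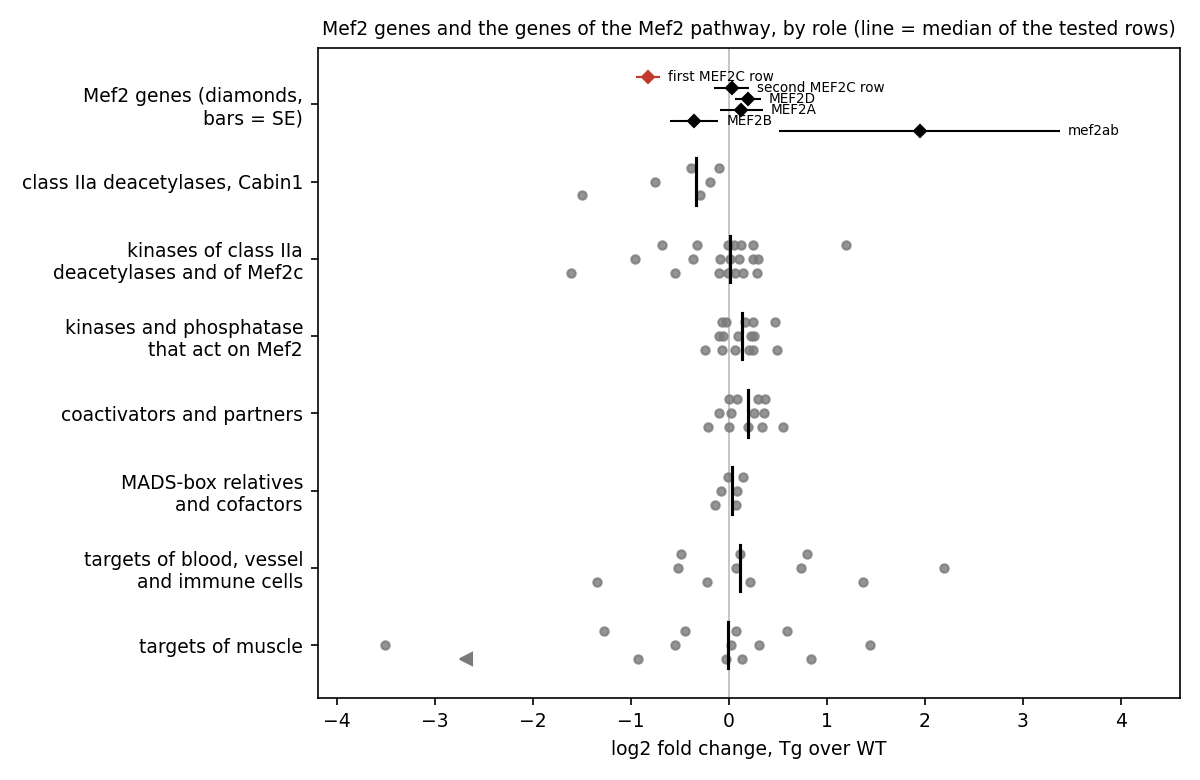
Log2 fold change of Tg over WT (horizontal axis) of the 6 Mef2 rows (diamonds, bars are standard errors) and of the tested rows of each list (grey points, black line at the median; the triangle marks a row at 0 in every Tg library, drawn at its bound). The class IIa deacetylase rows all lie below 0, with a median of -0.34, and no other list has a median beyond 0.20 in size.

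Genes known as Mef2 targets in mammals did not pass the test in either tissue group. Of the 11 tested target rows of blood, vessel and immune cells 4 were below 0, with a median of 0.11. The early growth response gene egr1 read 749, 454 and 558 CPM in Tg and 434, 44.1 and 203 CPM in WT. Its lowest Tg library was just above its highest WT library, and the WT libraries differed widely (log2 fold change 1.37 ± 0.69 standard error, adjusted p = 0.328 by edgeR). The log2 fold change of egr1 was 2.25 without WT replicate 1 and 0.88 without WT replicate 2. The shear-responsive factor klf2b had 130 ± 20.0 CPM in Tg and 152 ± 15.9 CPM in WT. In this list, 2 rows named after their values were seen had an unadjusted p under 0.05. The orphan receptor gene NR4A1, induced together with egr1 by many stimuli, read 119, 42.8 and 60.6 CPM in Tg and 32.9, 7.32 and 8.55 CPM in WT (log2 fold change 2.19 ± 0.66 standard error, adjusted p = 0.146 by edgeR). Its log2 fold change became 3.22 when WT replicate 1 was left out and 1.67 when Tg replicate 1 was. The metabolic coactivator PPARGC1A read 3.47, 2.24 and 2.42 CPM in Tg and 8.31, 5.14 and 7.25 CPM in WT (log2 fold change -1.35 ± 0.33 standard error, adjusted p = 0.108 by edgeR).

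The muscle targets had 14 of 21 rows tested, a median log2 fold change of -0.01 and 0 past the test, with 3 lower at an unadjusted p under 0.05, where 10.8% of all rows were. MYF5 and actc1a had no reads in any library. The myogenic factor rows MYOG, MYOD1 and MYF6 were at 0.244 CPM or less in each library. Myoglobin (mb) read 63.9, 82.2 and 98.4 CPM in Tg and 317, 111 and 163 CPM in WT (log2 fold change -1.27 ± 0.38 standard error, adjusted p = 0.142 by edgeR), and its log2 fold change was -0.75 without WT replicate 1. Its highest value was in WT replicate 1, the library with the highest sum of kidney tubule markers, and the part of that tissue in it was not tested. The TTN row ENSDARG00000000563, for the giant sarcomere protein titin, had no reads in the Tg libraries and 0.345, 0.484 and 0.244 CPM in the WT libraries, so the Tg level was at least 6.43-fold lower, taking 3 reads per library as the limit (adjusted p = 0.121 by edgeR). The other TTN row, ENSDARG00000028213, read 0.0749, 0 and 0.1335 CPM in Tg and 0.526, 1.67 and 0.2895 CPM in WT. Its log2 fold change was -3.52 ± 1.40 standard error (adjusted p = 0.232 by edgeR). With mb, these low TTN rows were the 3 lower at an unadjusted p under 0.05. The muscle actin gene actc1b had 2.29 ± 3.19 CPM in Tg and 1.86 ± 1.19 CPM in WT.

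Marker lists of the cells in a kidney marrow were read beside the first MEF2C row. The macrophage list had log2 fold changes below 0 in 15 of the 16 rows tested, with a median of -0.67. In it 5 rows were lower at an unadjusted p under 0.05, but 0 were past edgeR's test. Over all rows tested, 49.07% were below 0 and 10.8% were lower at such a p. MFAP4 and MPEG1 have several rows each. The macrophage list holds 17 rows for 8 listed genes, because every row of a shared symbol was kept, so its counts are of rows and not of listed genes. Its summed level was 1403 to 1953 CPM in Tg and 1653 to 3073 CPM in WT. The receptor gene csf1ra read 80.8, 82.8 and 96.3 CPM in Tg and 132, 179 and 231 CPM in WT (adjusted p = 0.0770 by edgeR and 3.53e-05 by DESeq2). IRF8, a factor of the macrophage lineage, read 130, 124 and 100.2 CPM in Tg and 160, 218 and 214 CPM in WT (adjusted p = 0.0918 by edgeR and 0.00107 by DESeq2). DESeq2 passed 2008 of all rows tested, and its results for the other macrophage rows are not given here. The 2 rows of the list with the highest mean CPM overlapped between the genotypes. The row of marco had 634 ± 188 CPM in Tg and 699 ± 293 CPM in WT (log2 fold change -0.14, adjusted p = 0.861 by edgeR). The MPEG1 row ENSDARG00000055290 had 272 ± 25.4 CPM in Tg and 304 ± 47.2 CPM in WT (log2 fold change -0.16, adjusted p = 0.589 by edgeR). The list also holds the MPEG1 rows ENSDARG00000043093 and ENSDARG00000078569, whose levels are not given here. The study reports mpeg1 among its downregulated genes. No macrophage marker had 0 reads in all libraries, and the part of these cells in the level of the MEF2C row was not tested.

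The kidney tubule list had log2 fold changes below 0 in all 10 rows tested, as had 49.07% of all rows tested, with a median of -1.16. At an unadjusted p under 0.05, 6 rows of the list were lower, where 10.8% of all rows tested were. In it 1 row, the salt transporter gene SLC12A3, was past the test (lower), where 0.373% of all rows tested were. The sums of the kidney tubule list were 1026 to 1263 CPM in Tg, below 1314 to 3265 CPM in WT, with WT replicate 1 the highest. The stem and progenitor list had sums of 635 to 762 CPM in Tg and 397 to 419 CPM in WT. In this list 3 of 8 rows were higher (gata2b, MEIS1 and KIT), where 0.224% of all rows tested were. Of the 8 rows, 2 had log2 fold changes below 0, as had 49.07% of all rows tested, and the median was 0.72. The MYB row made up the largest part of the sums, at 372 ± 52.5 CPM in Tg and 186 ± 24.7 CPM in WT. The MEIS1 row enters these sums and can hold reads of the meis1b transgene, so its level in Tg cannot be read as a marker of these cells. Leaving out 1 library gave adjusted p values by edgeR of 0.0282 to 0.104 for gata2b, 0.0526 to 0.129 for MEIS1, 0.0600 to 0.18 for KIT and 0.0457 to 0.185 for SLC12A3. Summed levels of the other lists overlapped between the genotypes: B cell markers were at 686 to 918 CPM in Tg and 597 to 1053 CPM in WT, thrombocyte markers at 741 to 901 CPM in Tg and 746 to 776 CPM in WT, and neutrophil markers at 20500 to 32780 CPM in Tg and 13670 to 25150 CPM in WT. T and NK cell markers were at 107 to 128 CPM in Tg and 73.2 to 132 CPM in WT, erythroid markers at 12510 to 31670 CPM in Tg and 17870 to 32610 CPM in WT, and endothelial markers at 534 to 772 CPM in Tg and 417 to 712 CPM in WT. None of these 6 lists had a row past the test. The part of any of these cells in the level of the MEF2C row was not tested.

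Markers of muscle, the tissue in which Mef2 factors are best known, were read as well. Skeletal muscle markers summed to 6.79 to 27.1 CPM in Tg and 10.6 to 14.1 CPM in WT. Cardiac markers summed to 4.30 to 7.23 CPM in Tg and 0.287 to 3.19 CPM in WT, with 2 of 7 rows tested. The row of MYL7 (a cardiac myosin light chain), a TNNT2 row and a TNNI1 row were at 0 in all libraries. Most of the sum came from 1 troponin row, TNNI1 (ENSDARG00000052708). It read 5.395, 4.304 and 6.158 CPM in Tg and 1.071, 0.287 and 2.789 CPM in WT (adjusted p = 0.222 by edgeR). The amount of cardiac tissue in the libraries was not tested.

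**Figure D4:**
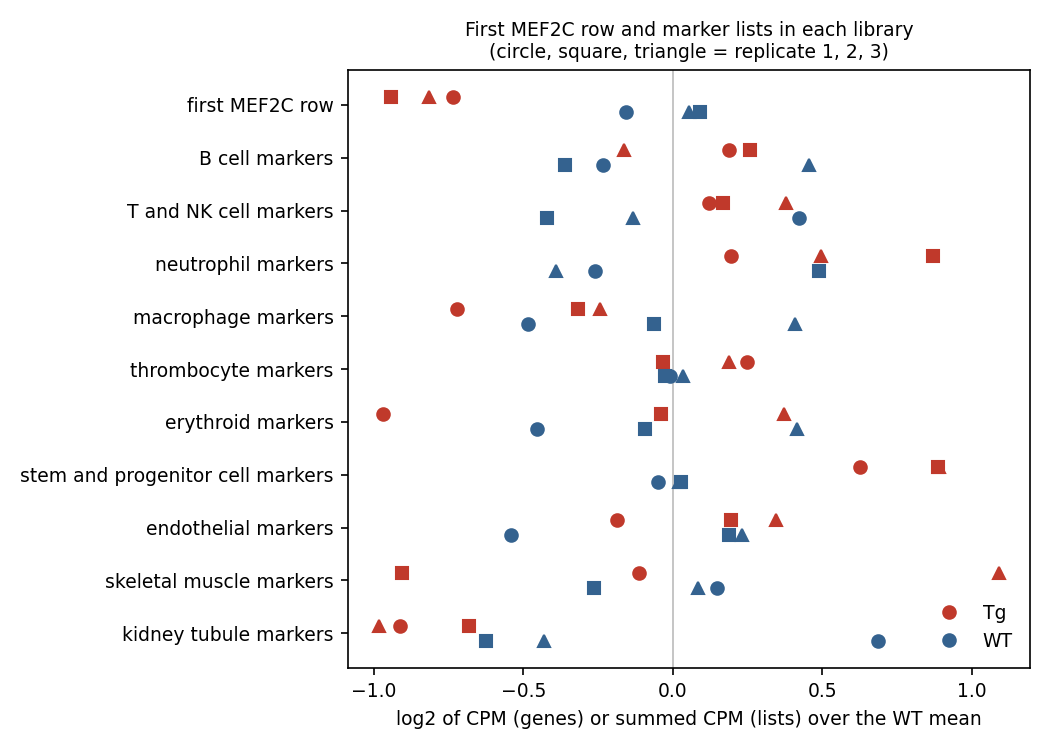
Log2 of CPM over the WT mean (horizontal axis) for each Tg (red) and WT (blue) library. Shown are the first MEF2C row and the summed CPM of each marker list except the cardiac muscle list, which is not drawn. The first MEF2C row lies at -0.94 to -0.74 in Tg and -0.16 to 0.09 in WT, and the macrophage sums overlap. The kidney tubule sums are lower in every Tg library than in any WT library, and the part of that tissue in the MEF2C row was not tested. The stem and progenitor sums, which include the MEIS1 row with its possible transgene reads, are higher in every Tg library.

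The genes most like each member over the 6 libraries were taken as the 3 with the highest Pearson r of log2 CPM among the 12250 named genes that averaged 5 CPM or more. For the first MEF2C row these were RAB3GAP1, part of the complex that activates the GTPase Rab18 (r = 0.998), the NOTCH1 row ENSDARG00000103554, a Notch receptor (r = 0.997), and pierce1, a cilium gene (r = 0.995), and 103 genes had an r over 0.95. RAB3GAP1 read 30.6, 26.3 and 27.8 CPM in Tg and 40.7, 47.1 and 45.9 CPM in WT. NOTCH1 read 31.0, 28.8 and 29.9 CPM in Tg and 43.6, 48.1 and 46.3 CPM in WT. Each had its lowest level in Tg replicate 2 and its highest in WT replicate 2, as the MEF2C row did. In the test over all genes their adjusted p values by edgeR were 0.0770 for RAB3GAP1, 0.0722 for NOTCH1 and 0.0584 for pierce1. These genes were picked for following the MEF2C row over the same libraries, so their difference between genotypes follows from that choice.

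The second MEF2C row had 3 genes with an r over 0.95, CHIC1 (0.964), si:ch211-216p19.6 (0.961) and hsbp1b (0.956). There were 73 such genes for mef2ab, 30 for MEF2D, 25 for MEF2B and 12 for MEF2A. MEF2D was closest to RPUSD4, a mitochondrial pseudouridine synthase (0.995), THAP12 (0.991) and TAF7, a subunit of the general factor TFIID (0.985). MEF2A was closest to CDK7, the kinase of the general factor TFIIH (0.998), which read 16.4, 22.1 and 33.6 CPM in Tg and 21.2, 21.2 and 21.9 CPM in WT, followed by LARP4B (0.970) and LUC7L3 (0.968). For MEF2B they were ptprjb.1 (0.991), WIPF2 (0.990) and PPP1R13B (0.986), and for mef2ab fut7 (0.993), ALDOC (0.992) and DIS3L2 (0.992). With 12250 genes and 6 libraries in 2 genotypes, high coefficients are common, and they are given as descriptions. No gene was among the 3 closest of more than 1 member.

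**Figure D5:**
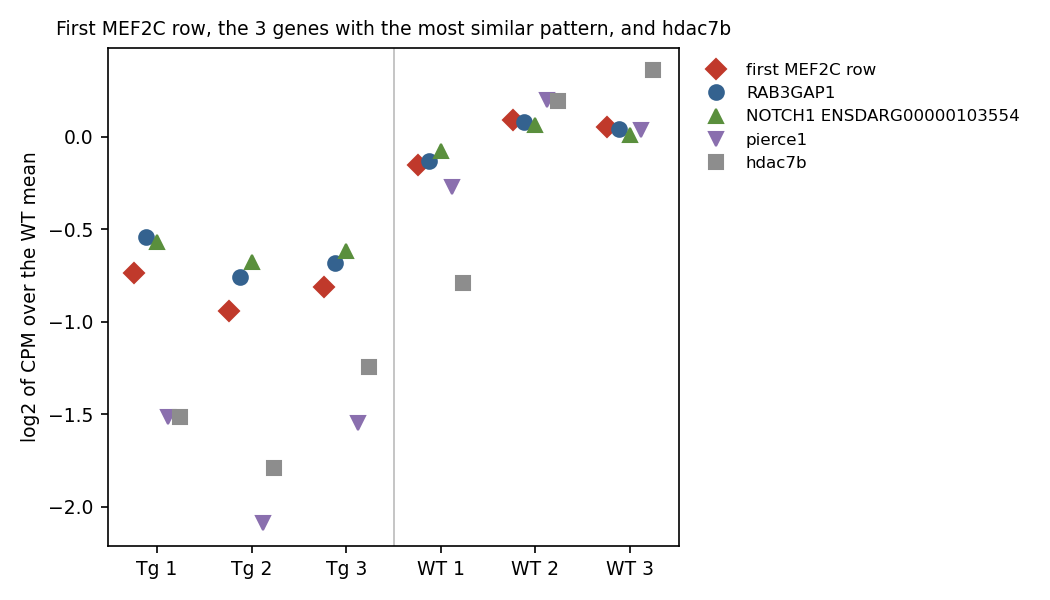
Log2 of CPM over the WT mean (vertical axis) in each Tg and WT library for the first MEF2C row, for RAB3GAP1, NOTCH1 (ENSDARG00000103554) and pierce1, the genes with the most similar pattern, and for hdac7b. All 5 lie lower in each Tg library than in any WT library. For RAB3GAP1, NOTCH1 and pierce1 this follows from their choice by likeness to the MEF2C row over these same libraries. Of all rows tested, 28.1% did not overlap between the genotypes, in either direction. The values of hdac7b differ from those of the MEF2C row in their spread over the WT libraries.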

How the data were processed

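Poly(A) RNA of kidney marrow cells was sequenced as paired ends in 3 Tg and 3 WT libraries, each a pool from 3 kidneys. The authors used Cutadapt 1.9 for trimming, HISAT2 2.0.4 for alignment (GRCz11) and StringTie 1.3.4d for assembly. They compared the groups with DESeq2, at an adjusted p under 0.05 and a change of at least 2-fold. The deposited values are raw gene counts, not normalized; the sources used here do not give the step that made them or its use of strand. Low counts were removed with filterByExpr (edgeR 4.0.16, R 4.3.3) and libraries scaled by TMM. Tg was tested against WT with edgeR's quasi-likelihood test, p-values being adjusted by Benjamini-Hochberg across every gene in the fit. The script was tested on simulated data. Log2 CPM for likeness used a prior count of 2. Alternatives were other scalings and filters, DESeq2 1.42.0, limma-voom (limma 3.58.1), a replicate block and leaving out each library. P-values measure the spread between pools.

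Symbols came from a name table covering 28988 of 32057 IDs, and a listed gene without its own symbol was matched by its human symbol or an alias, with every row of a shared symbol kept. These matching rules were set after the table was opened. RefSeq's gene table, of another assembly, was used only for names and overlapping genes. Listed genes with no match were hdac9a, map2k3 and myocd of the pathway lists and trac, cd247, cebpe, cpa5, hbba1, hbba2, pecam1, vmhc and slc22a6l of the marker lists. Named were the 6 members, hoxa9a and meis1b, the genes of each pathway list past the test and its 2 highest by CPM, and the 3 genes most like each member. Others were named after their values were seen. The members and lists were chosen with earlier results of these data known. Limits given for a count of 0 hold for counting error alone.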

Additional observations from a re-analysis of the deposited data

How the results depend on the processing

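The first MEF2C row kept its direction in all 13 alternatives (log2 fold change -0.90 to -0.78) and passed an adjusted p of 0.05 in 4 of them, with 0.0434 under DESeq2's size factors, 2.9e-07 in DESeq2, 0.0432 with no filter and 0.0421 with a mean of at least 1 CPM. It was 0.0528 with total counts alone, 0.0515 in limma-voom and 0.14 with a replicate block. All alternatives use the libraries in which the family was chosen, so they describe this row and are no separate support for its difference. The log2 fold change of mef2ab, 1.95, was 3.59 in limma-voom, 1.34 to 3.99 when 1 library was left out and 3.21 with the replicate block, and it had no value under a mean of at least 1 CPM. MEF2B and MEF2D kept their signs, while the second MEF2C row ranged from -0.09 to 0.09 and MEF2A from -0.10 to 0.30. Of the 87 pathway rows tested, 0 passed by edgeR, 4 in DESeq2 and 0 to 1 when 1 library was left out. Among all genes, 113 passed at 2-fold or more and 120 with no fold threshold. DESeq2 gave 1312 and 2008, limma-voom 48 and 50, the replicate block 1 and 1, and leaving out 1 library 0 to 87 and 0 to 88, the lowest being 4 without WT replicate 2, 1 without WT replicate 3 and 0 without Tg replicate 2 or without Tg replicate 3, by either rule. Nothing states that equal replicate numbers pair the pools, and their deviations correlated at -0.09, -0.14 and 0.13, so the block is given here only. The cause of these shifts was not tested. The label checks hoxa9a and MEIS1 kept their directions in all 13 and passed the test in 6 and 5 of them. The mef2ab row held 54 reads or fewer in each library, which limits its precision.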
